A study of Caenorhabditis elegans with 6 samples.

Results

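The nematode-specific peptide (nsp) genes of *Caenorhabditis elegans* were taken as every gene whose WormBase symbol starts with nspa-, nspb-, nspc-, nspd- or nspe-. There were 58 such genes among the 22010 genes measured, with 10 in the nspa subfamily, 12 in nspb, 18 in nspc, 10 in nspd and 8 in nspe. Their RNA was measured in whole animals at the last larval stage (L4), in 3 libraries of pals-25(icb98) mutants and 3 libraries of WT animals (N2 background), which the sample titles number as biological replicates. In pals-25(icb98) an early stop codon truncates the C-terminus of PALS-25, an activator of responses to natural pathogens, and the line was picked after chemical mutagenesis because it expressed a *chil-27* reporter without infection. Both strains carry the integrated transgene icbIs4[chil-27p::gfp, col-12p::mCherry], so GFP is under the *chil-27* promoter and mCherry under that of *col-12*. No animal was infected, and both strains were raised from bleached embryos at 20°C on *E. coli* OP50. The mutant is 1 line from the screen, and whether the sequenced line was outcrossed is not given in the sources used here. RNA was pooled from whole animals, and fewer cells of a type and less RNA per cell cannot be told apart in any value below.

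The nsp gene classes group short peptides that were first recognised in nematode genomes and sorted into groups A to E by likeness of sequence. Many members lie next to each other as near-identical copies, and for most of them no function has been assigned. Peptides of group D have been found in *Caenorhabditis* sperm. At L4 the hermaphrodite gonad makes sperm and then turns to oocytes, while the epidermis prepares the last molt, so RNA from an L4 population changes within hours.

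The annotated structures differed by subfamily. An nspa gene was a single exon that encodes 34 residues, and an nspd gene was a single exon that encodes 70 to 73 residues. All nspb and nspc genes had 2 exons, encoding 79 to 86 and 101 to 103 residues. The nspe genes had 1 or 2 exons and encoded 71 to 75 residues. Placed on the Ensembl WBcel235 annotation, 46 of the 58 genes lay in 9 runs whose members were at most 20 kb from the next member, and 12 lay alone. All 18 nspc genes were on chromosome X, all 8 nspe genes stood in 1 run on chromosome II, and 7 nspa genes stood in 1 run on chromosome V. By contrast, the nspb genes were spread over chromosomes II, III and IV, and the nspd genes over chromosomes I, II, III and IV.

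Libraries held 40709626 to 47297002 estimated counts each. *chil-27*, the gene whose reporter was screened, measured 36.2, 40.2 and 33.5 CPM (estimated counts relative to the scaled total of the library) in the 3 mutant libraries, against 0.126, 0.0485 and 0.221 CPM in the 3 WT libraries, values being listed throughout for replicates 1, 2 and 3 in that order. The stop codon of icb98 does not remove the *pals-25* transcript, which measured 4.08, 4.23 and 3.78 CPM in the mutant, against 1.88, 2.47 and 1.77 CPM in WT. On the log2(CPM + 0.5) scale, any pair of mutant libraries differed by more than 2-fold at 11 to 30 genes, and WT replicates 1 and 3 at 15 genes. WT replicate 2 stood apart, at 2073 genes from WT replicate 1 and 1841 genes from WT replicate 3. In that library the 80 sperm genes of a marker list, among them the major sperm proteins, summed to 0.32 times the mean of the other WT libraries, and a list of 15 oocyte and eggshell genes to 0.465 times that mean. A list of 19 genes of molting and the apical matrix summed to 1.55 times that mean. Results are therefore given with and without WT replicate 2.

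In pals-25(icb98), nspb and nspe genes rose, and no nspa or nspd gene was called. Among nspc genes the shares called higher and lower were near those of all tested genes. Of the 58 genes, 48 had enough counts to be tested, and edgeR's quasi-likelihood test called 15 of them higher and 2 lower in the mutant at an adjusted p under 0.05. Over the whole table of 16166 tested genes, 9.8% were called higher and 10.7% lower. The 15 higher genes were 10 nspb, 3 nspe and 2 nspc genes, and both lower genes were nspc genes. All 3 mutant libraries lay above all 3 WT libraries for 29 of the tested nsp genes, against 24.4% of all tested genes, and below them for 6, against 24.8%. The median log2 change over the tested nsp genes was 0.70, and over all tested genes it was 0.01. Without WT replicate 2, 29 nsp genes were called higher and 4 lower, while the shares over the whole table were 19.3% and 18.1%.

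**Figure D1:**
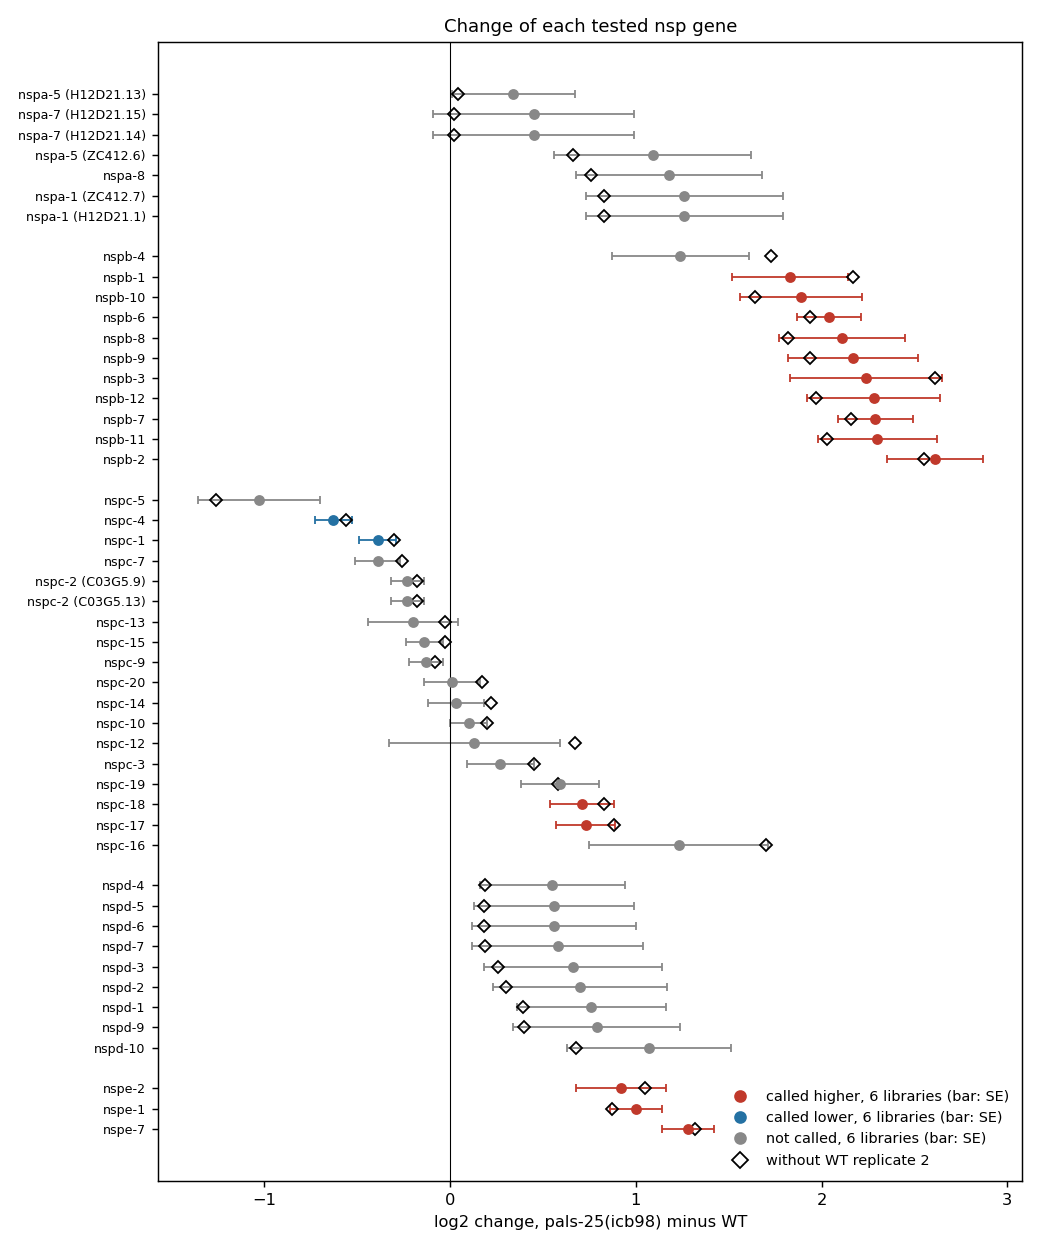
The log2 change of each of the 48 tested nsp genes (x axis, pals-25(icb98) minus WT) is plotted by subfamily, with circles for the fit of 6 libraries, bars for its standard error and open diamonds for the fit without WT replicate 2. All 11 nspb circles lie between 1.24 and 2.61, the nspc circles lie on both sides of 0, and the nspd diamonds lie nearer to 0 than their circles.

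The nspb subfamily showed the largest change of the 5 subfamilies. Its 12 genes summed to 105, 83.1 and 106 CPM in the mutant libraries, against 22.4, 15.6 and 28.1 CPM in the WT libraries. The mean was 98.0 ± 12.9 CPM in the mutant and 22 ± 6.28 CPM in WT (SD, n = 3 each), a ratio of 4.45, and the groups did not overlap. Leaving WT replicate 2 out gave a ratio of 3.88. Of the 11 tested nspb genes, 10 were called higher and none lower, and all 11 had every mutant library above every WT library. Their median log2 change was 2.17.

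nspb-12 (F09F7.8, III 5568213 to 5568779), the nspb gene with the most counts, stands alone on chromosome III and encodes the longest nspb peptide, 86 residues. It measured 25.8, 20.3 and 25.5 CPM in pals-25(icb98), against 5.80, 2.50 and 6.42 CPM in WT. The lowest value was that of WT replicate 2, at 0.408 times the mean of the other WT libraries. The log2 change was 2.28 (SE 0.36, edgeR adjusted p = 0.0110), and the call was lost without mutant replicate 1 or 3, with an edgeR adjusted p of up to 0.0536.

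The 4 genes nspb-7 to nspb-10 lie within 9.95 kb on chromosome II (14578313 to 14588262), and all 4 were called higher. nspb-8 (C01G12.10) measured 14.3, 11.8 and 12.9 CPM in the mutant, against 3.23, 1.60 and 4.18 CPM in WT (log2 change 2.11, SE 0.34, edgeR adjusted p = 0.0122). nspb-7 (C01G12.2) measured 9.07, 7.24 and 9.33 CPM in the mutant, against 1.74, 1.38 and 2.08 CPM in WT (log2 change 2.29, SE 0.20, edgeR adjusted p = 0.00143). These neighbours thus moved by like amounts, with WT replicate 2 lowest in each. Levels of nspb-9 (C01G12.11) were 10.5, 6.63 and 9.84 CPM in mutant libraries and 1.81, 1.24 and 2.93 CPM in WT libraries (log2 change 2.17, SE 0.35, edgeR adjusted p = 0.0125). Levels of nspb-10 (C01G12.6) were 10.5, 7.88 and 11.1 CPM in mutant libraries and 2.49, 1.62 and 3.87 CPM in WT libraries (log2 change 1.89, SE 0.33, edgeR adjusted p = 0.0155). The run as a whole summed to 40.4 ± 5.91 CPM in the mutant and 9.39 ± 3.61 CPM in WT, a ratio of 4.30. The calls of nspb-8, nspb-9 and nspb-10 were each lost without mutant replicate 1 or 3, at edgeR adjusted p of up to 0.0590, 0.0593 and 0.0693, whereas nspb-7 was called in every fit that left out 1 library.

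nspb-11 (F35C5.10, II 12907370 to 12907783) and nspb-6 (H04M03.2, IV 5895490 to 5895888) stand alone, over 20 kb from any other nsp gene. nspb-11 measured 13.5, 10.1 and 14.7 CPM in pals-25(icb98), against 2.85, 1.53 and 3.42 CPM in WT (log2 change 2.30, SE 0.32, edgeR adjusted p = 0.00784). nspb-6 measured 9.56, 8.09 and 9.48 CPM in pals-25(icb98), against 2.13, 1.87 and 2.58 CPM in WT (log2 change 2.04, SE 0.17, edgeR adjusted p = 0.00104). The 3 WT libraries of nspb-6 were close to each other, and its adjusted p was the smallest among the nsp genes. Both genes were called in every fit that left out 1 library, at edgeR adjusted p of up to 0.0428 for nspb-11 and 0.0107 for nspb-6.

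The 5 genes nspb-1 to nspb-5 lie within 8.88 kb on chromosome IV (6590734 to 6599610) and had the lowest TPM of the nspb genes. nspb-2 (F38A5.12) measured 5.14, 4.90 and 5.66 CPM in the mutant, against 0.604, 0.742 and 1.20 CPM in WT, and its log2 change of 2.61 was the largest of the tested nsp genes (SE 0.26, edgeR adjusted p = 0.00251, called without each library in turn). nspb-1 (F38A5.14) measured 3.95, 3.58 and 4.66 CPM in the mutant, against 1.07, 1.64 and 0.707 CPM in WT (log2 change 1.83, SE 0.31, edgeR adjusted p = 0.0133, and up to 0.0644 without mutant replicate 1 or 3). Both overlap *irld-7*, which measured 3.19, 3.07 and 3.21 CPM in the mutant and 3.23, 1.07 and 2.95 CPM in WT and was not called, and reads from the shared stretches cannot be assigned with certainty. nspb-3 (F38A5.5) measured 0.738, 0.852 and 0.531 CPM in the mutant and 0.155, 0.227 and 0.0796 CPM in WT (log2 change 2.24, SE 0.41, edgeR adjusted p = 0.0162). It had at most 9.4 estimated counts in a WT library, so it entered the test through its mutant counts, and its call was lost without mutant replicate 1 or 2 or WT replicate 1 (edgeR adjusted p up to 0.0736). nspb-4 (F38A5.10) was the tested nspb gene that was not called. It measured 1.73, 1.58 and 2.16 CPM in the mutant and 0.472, 1.21 and 0.646 CPM in WT (log2 change 1.24, SE 0.37, edgeR adjusted p = 0.0619), and it was called without WT replicate 2 (log2 change 1.73, edgeR adjusted p = 0.000435). nspb-5 had 2.1, 2.2 and 10 estimated counts in the mutant and 1.0, 1.0 and 0.0 in WT and was not tested.

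**Figure D2:**
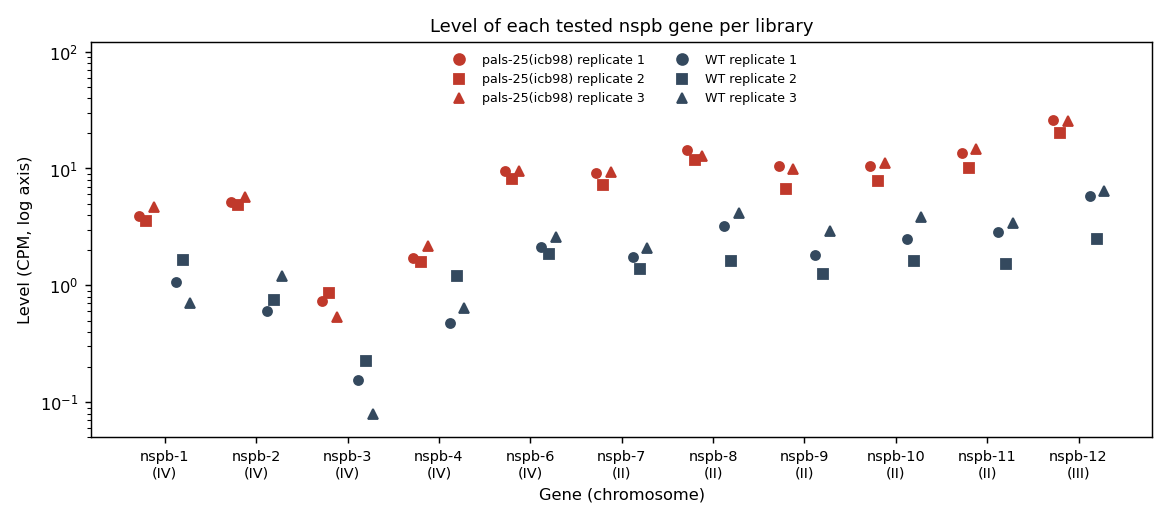
CPM of the 11 tested nspb genes is plotted per library on a log axis, with red symbols for pals-25(icb98), grey-blue symbols for WT and the marker shape for the replicate number. Every red symbol lies above every grey-blue symbol of the same gene, and WT replicate 2 (square) is the lowest WT library for 7 genes and the highest for nspb-1, nspb-3 and nspb-4.

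WT replicate 2 therefore did not lie on the same side for all nspb genes. Its value was 0.408 to 2.17 times the mean of the other WT libraries across the 11 genes. The rise was present against WT replicates 1 and 3 alone. There all 11 tested nspb genes, nspb-3 among them, were called higher, at a median log2 change of 1.97. The oocyte and eggshell list also moved with the group, at 1680 to 2010 CPM in pals-25(icb98) against 518 to 1130 CPM in WT, with 6 of its 15 genes called higher, 15 of 15 without WT replicate 2, and none at 0. The molting list summed to 1900 to 2780 CPM in the mutant and 4760 to 8070 CPM in WT, and 10 of its 19 genes were called lower and 2 higher. Their part in the nspb rise was not tested.

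The nspe subfamily was at about 2.03 times its WT level in pals-25(icb98). Its 8 genes, which stand in 1 run on chromosome II (12612518 to 12629384), summed to 50.5, 50.4 and 55.0 CPM in the mutant libraries, against 28.3, 22 and 26.2 CPM in the WT libraries. The mean was 52.0 ± 2.67 CPM in the mutant and 25.5 ± 3.21 CPM in WT, and the ratio without WT replicate 2 was 1.90. Only 3 of the 8 genes passed the filter on low counts, and all 3 were called higher. The oocyte and eggshell list had a ratio of 2.06 (1.69 without WT replicate 2) and the molting list one of 0.372 (0.441 without it). A list of 10 intestine genes had a ratio of 1.26 (1.32 without WT replicate 2). Lists for epidermis, pharynx, body wall muscle and neurons had ratios of 0.958 to 1.04 (0.925 to 1.10 without WT replicate 2). The epidermis sum held genes that moved in both directions. Of its 15 genes, 2 were called higher and 5 lower (3 and 7 without WT replicate 2), at a median log2 change of -0.31. The part of these lists in the nspe rise was not tested.

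nspe-1 (Y38E10A.13) made up 80.5% of the subfamily total. It measured 41.0, 40.5 and 43.2 CPM in pals-25(icb98), against 24.4, 16.8 and 21 CPM in WT, with no overlap (log2 change 1.0, SE 0.14, edgeR adjusted p = 0.00698). nspe-7 (Y38E10A.15) measured 6.41, 6.39 and 7.37 CPM in pals-25(icb98), against 2.47, 2.91 and 2.93 CPM in WT (log2 change 1.28, SE 0.14, edgeR adjusted p = 0.00312). Both genes were called whichever library was left out, and WT replicate 2 was the lowest library only for nspe-1. nspe-2 (Y38E10A.26) measured 2.64, 3.11 and 3.80 CPM in the mutant and 1.26, 1.99 and 1.82 CPM in WT (log2 change 0.92, SE 0.24, edgeR adjusted p = 0.0422), and its call was lost without any 1 library other than WT replicate 2 (edgeR adjusted p up to 0.141). The 5 untested genes were close to silent. nspe-4 had 9.0, 13 and 11 estimated counts in the mutant libraries and 1.0, 6.0 and 5.0 in the WT libraries, and nspe-3, nspe-5, nspe-6 and nspe-8 had at most 8.0 in any library.

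**Figure D3:**
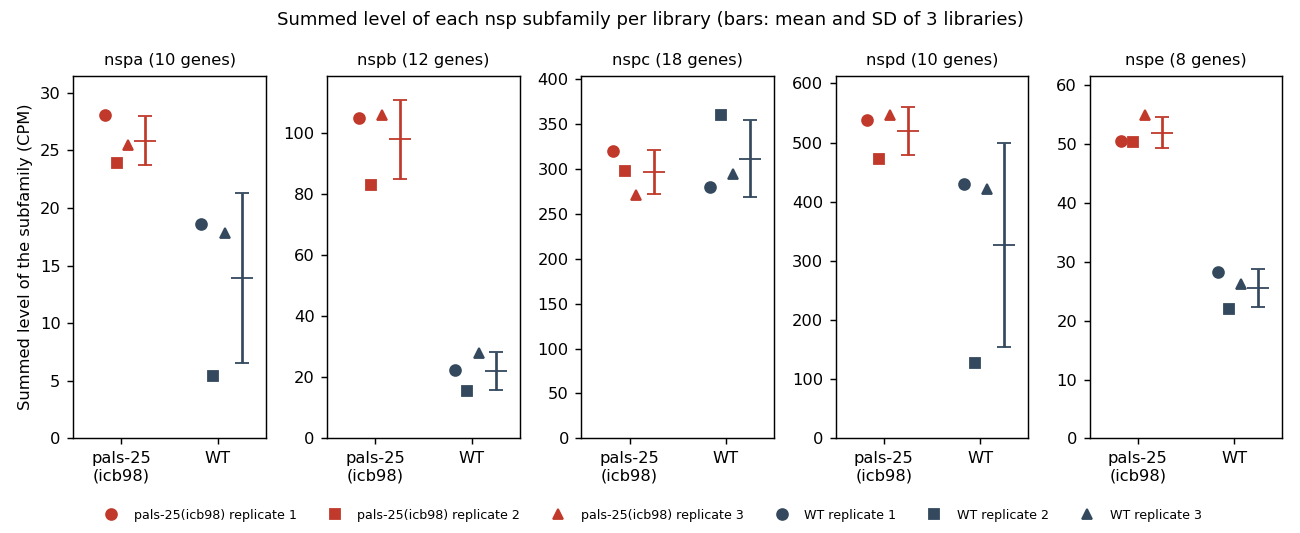
Summed CPM of all genes of each nsp subfamily is plotted per library, with 3 pals-25(icb98) libraries in red left of 3 WT libraries in grey-blue and bars for the mean and SD. The nspb and nspe totals of the mutant lie above those of WT by more than their spread, the nspc totals overlap, and WT replicate 2 (square) lies far below the other WT libraries for nspa and nspd, at 5.40 and 128 CPM.

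The nspc total overlapped between the groups. The 18 nspc genes summed to 320, 297 and 271 CPM in pals-25(icb98), against 280, 360 and 294 CPM in WT, a mean of 296 ± 24.5 CPM in the mutant and 311 ± 42.8 CPM in WT, a ratio of 0.952, and of 1.03 without WT replicate 2. All 18 were tested, at a median log2 change of -0.06 and a range of -1.03 to 1.23. edgeR called 2 of them higher and 2 lower, shares near the 9.8% and 10.7% of all tested genes, DESeq2 called 4 and 4, and limma-voom called 2 and 2. For 3 of the 18 genes every mutant library lay above every WT library, and for 6 below, against 24.4% and 24.8% of all tested genes. WT replicate 2 was the highest WT library for 16 of the 18 genes, and the nspc total there was 1.25 times the mean of the other WT libraries.

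The 3 nspc genes of highest level were not called. nspc-20 (D1025.4) measured 50.3, 44.3 and 41.4 CPM in the mutant, against 38.1, 54.5 and 42.6 CPM in WT (log2 change 0.01, SE 0.15, edgeR adjusted p = 0.973). nspc-14 (F42F12.7) measured 41.9, 37 and 37.4 CPM in the mutant, against 33.1, 47.4 and 33.7 CPM in WT (log2 change 0.03, SE 0.15, edgeR adjusted p = 0.912). In both genes WT replicate 2 had the highest value and all 3 mutant libraries lay within the WT range. nspc-15 (F42F12.8) measured 36.7, 32.9 and 32.0 CPM in the mutant, against 34.9, 42.6 and 34.5 CPM in WT (log2 change -0.14, SE 0.10, edgeR adjusted p = 0.380). Without WT replicate 2, nspc-14 was called higher at a log2 change of 0.22 (edgeR adjusted p = 0.0255).

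The nspc genes stand in 3 runs on chromosome X, which are described one by one, without a test between them. In the run of 7 genes at 8534672 to 8542283, the sum was 85.4, 86.6 and 78.7 CPM in pals-25(icb98), against 99.6, 120 and 104 CPM in WT. The mutant libraries were all below the WT libraries, at a ratio of 0.775, and the median log2 change of the run was -0.39. nspc-4 (C03G5.11) measured 15.1, 13.8 and 13.3 CPM in the mutant, against 19.6, 23.9 and 22 CPM in WT (log2 change -0.63, SE 0.10, edgeR adjusted p = 0.0120, and up to 0.0606 without mutant replicate 2 or 3). nspc-1 (C03G5.8) measured 20.1, 19.8 and 17.8 CPM in the mutant, against 23.4, 28.4 and 23.8 CPM in WT (log2 change -0.39, SE 0.10, edgeR adjusted p = 0.0455), and this call was lost without any 1 library other than WT replicate 2 (edgeR adjusted p up to 0.155). In the same run, nspc-5 (log2 change -1.03, edgeR adjusted p = 0.0780) and nspc-7 (log2 change -0.39, edgeR adjusted p = 0.0736) were not called, and both were called lower without WT replicate 2. nspc-3 differed from its neighbours in sign, at a log2 change of 0.27, and was not called with all 6 libraries. Without WT replicate 2 it was called higher (log2 change 0.45, edgeR adjusted p = 0.0255).

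In the run of 5 genes at 14523575 to 14530207, the sum was 88.9, 76.2 and 68.1 CPM in pals-25(icb98), against 55.2, 77.1 and 61.1 CPM in WT, and the groups overlapped. nspc-17 (D1025.8) measured 12, 10.7 and 10.2 CPM in the mutant, against 5.85, 7.98 and 6.10 CPM in WT (log2 change 0.73, SE 0.16, edgeR adjusted p = 0.0265). nspc-18 (D1025.7) measured 10, 8.33 and 7.85 CPM in the mutant, against 4.45, 6.20 and 5.39 CPM in WT (log2 change 0.71, SE 0.17, edgeR adjusted p = 0.0357). For both genes the groups did not overlap, and both calls were lost without any 1 library other than WT replicate 2, at edgeR adjusted p of up to 0.115 and 0.135. The other genes of the run, nspc-16 (log2 change 1.23, SE 0.48, edgeR adjusted p = 0.123), nspc-19 (0.59, SE 0.21, edgeR adjusted p = 0.0994) and nspc-20, were not called. In the middle run of 6 genes at 12342946 to 12361159, none was called, the median log2 change was -0.05, and the sum was 135 ± 10.8 CPM in the mutant and 139 ± 21.2 CPM in WT.

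**Figure D4:**
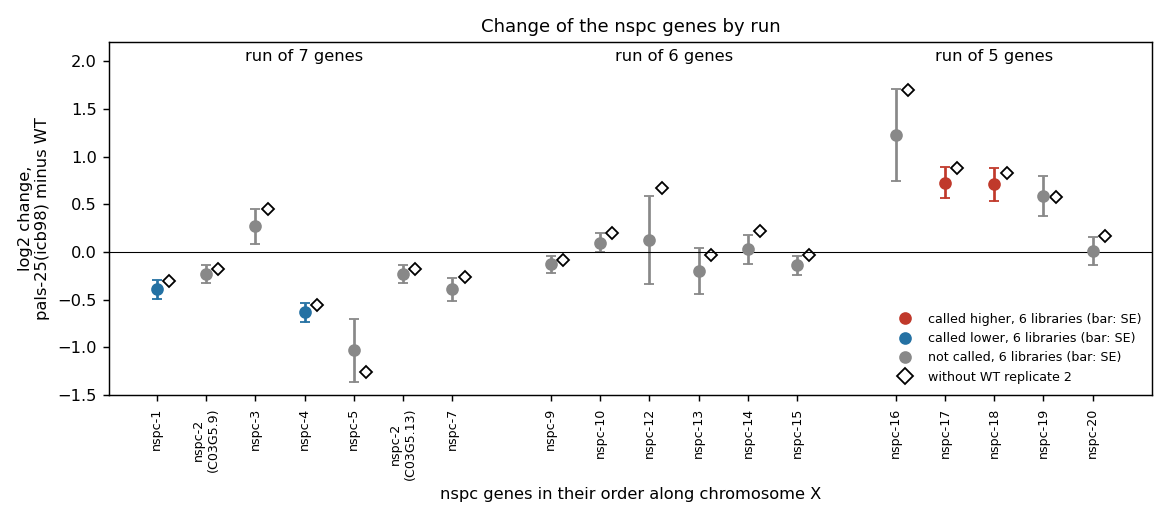
The log2 change (y axis, pals-25(icb98) minus WT) of the 18 nspc genes is plotted in their order along chromosome X, with circles and standard error bars for the fit of 6 libraries and open diamonds for the fit without WT replicate 2. Of the run of 7 genes, 6 lie below 0 and nspc-4 and nspc-1 were called lower, whereas all 5 genes of the last run lie at or above 0 and nspc-17 and nspc-18 were called higher.

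The nspd genes, the group found in sperm, had the highest mean levels of the 5 subfamilies per length of transcript in both groups, although in WT replicate 2 they summed to 644 TPM and the nspc genes to 1520 TPM. They summed to 2520 ± 168 TPM (estimated counts divided by effective length and scaled to a common total per library) in pals-25(icb98) and 1600 ± 827 TPM in WT. The corresponding sums in TPM were 1210 ± 90.2 in the mutant and 1300 ± 196 in WT for nspc, 533 ± 64.9 and 126 ± 31.8 for nspb, 488 ± 47.1 and 261 ± 142 for nspa, and 254 ± 13.9 and 128 ± 13.6 for nspe, in each case with the mutant before WT. The genes named nspa-1 and nspa-7 had an effective length of only 16.3 bases, which raises the nspa sum in TPM. In CPM, nspa lay below nspe, at mutant means of 25.8 and 52.0. nspd-1 had the highest TPM of all 58 genes, at 517 ± 24.0 in the mutant and 311 ± 150 in WT.

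In CPM, the nspd genes summed to 539, 473 and 547 in the mutant libraries, against 430, 128 and 422 in the WT libraries. The mutant libraries lay above all WT libraries, at a ratio of 1.59, but WT replicate 2 was far below the other 2 WT libraries, and without it the ratio was 1.22. None of the 9 tested nspd genes was called in either direction by edgeR, with none at an unadjusted p under 0.05 and none called by DESeq2 or limma-voom. Their log2 changes ranged over 0.55 to 1.07, at edgeR adjusted p of 0.144 to 0.400.

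The most abundant nspd genes shared 1 pattern across the libraries. nspd-1 (ZK484.8) measured 114, 101 and 111 CPM in pals-25(icb98), against 83.0, 27.7 and 82.5 CPM in WT (log2 change 0.76, SE 0.40, edgeR adjusted p = 0.239). nspd-3 (C24D10.7) measured 79.6, 71.6 and 85.9 CPM in pals-25(icb98), against 67.4, 17.6 and 64.6 CPM in WT (log2 change 0.66, SE 0.48, edgeR adjusted p = 0.364). In both, WT replicates 1 and 3 were nearly level and WT replicate 2 was low. nspd-2 (K07F5.5) measured 80.7, 69.6 and 81.6 CPM in pals-25(icb98), against 62.5, 17.3 and 62.9 CPM in WT (log2 change 0.70, SE 0.47, edgeR adjusted p = 0.333). WT replicate 2 was the lowest WT library for all 9 tested nspd genes, at 0.267 to 0.346 times the mean of the other WT libraries. With that library left out, 7 of the 9 were called higher, at a median log2 change of 0.26 over the 9. The largest of these was nspd-10, at a log2 change of 0.68 (standard error 0.09, edgeR adjusted p = 0.000276). nspd-8 had no count in any library and was not tested.

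The nspa genes, which encode the shortest peptides, behaved like the nspd genes with respect to WT replicate 2. They summed to 28.1, 23.9 and 25.5 CPM in the mutant libraries, against 18.6, 5.40 and 17.8 CPM in the WT libraries. The ratio of means was 1.85, and 1.42 without WT replicate 2. None of the 7 tested nspa genes was called in either direction, with none at an unadjusted p under 0.05 and none called by DESeq2 or limma-voom. WT replicate 2 was the lowest WT library for all 7.

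nspa-8 (W06A7.5, V 14826948 to 14827052) was the most abundant, at 43.7% of the nspa total. It measured 13, 10.8 and 12.3 CPM in pals-25(icb98), against 7.30, 1.73 and 6.90 CPM in WT (log2 change 1.18, SE 0.50, edgeR adjusted p = 0.152). W06A7.4, which overlaps it on the opposite strand, measured 4.29, 5.73 and 5.84 CPM in the mutant and 5.75, 8.85 and 5.48 CPM in WT, so WT replicate 2 was its highest library. 2 genes in the run on chromosome V (14878348 to 14891186) carry the symbol nspa-5. nspa-5 (H12D21.13) measured 6.06, 6.24 and 5.43 CPM in the mutant, against 5.63, 2.46 and 5.85 CPM in WT, with overlap (log2 change 0.34, SE 0.33, edgeR adjusted p = 0.482). nspa-5 (ZC412.6) measured 3.49, 2.47 and 2.52 CPM in the mutant, against 1.89, 0.386 and 1.67 CPM in WT (log2 change 1.09, SE 0.53, edgeR adjusted p = 0.201). Without WT replicate 2, nspa-8, nspa-5 (ZC412.6) and both genes named nspa-1 were called higher, at log2 changes of 0.76, 0.66 and, for each nspa-1 gene, 0.83. nspa-9 and nspa-10 had no count in any library, and nspa-2 had at most 2.0.

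**Figure D5:**
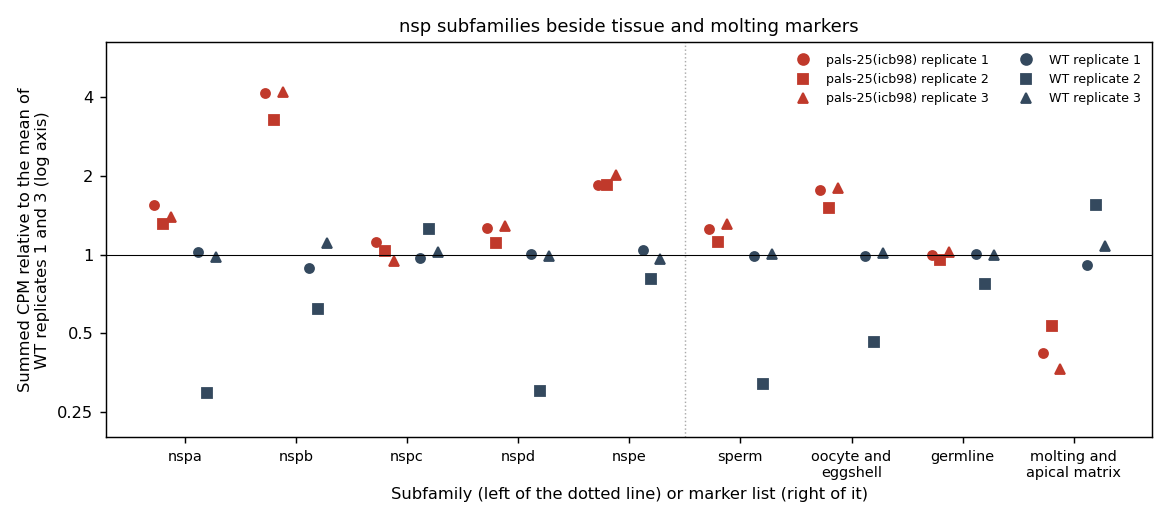
The summed CPM of each nsp subfamily and of 4 marker lists is plotted per library relative to the mean of WT replicates 1 and 3 (y axis, log scale), with pals-25(icb98) in red and WT in grey-blue. WT replicate 2 (square) lies at 0.297 for nspa, 0.301 for nspd and 0.320 for the sperm list, and the nspb and nspe subfamilies lie above 1 in all mutant libraries.

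Sperm markers moved with the nspa and nspd values. The 80 sperm genes summed to 4100 to 4790 CPM in pals-25(icb98) and 1170 to 3690 CPM in WT, a ratio of 1.59, with WT replicate 2 the lowest WT library for 77 of the 79 tested. 1 sperm gene was called higher and none lower with all 6 libraries, and 43 were called higher and 2 lower without WT replicate 2, none being at 0 in all libraries. gsp-3 and gsp-4, phosphatases of sperm, measured 121 ± 7.54 and 90.9 ± 8.01 CPM in the mutant, against 83.3 ± 39.2 and 62.2 ± 30.0 CPM in WT. A list of 12 germline genes differed less, at 2520 to 2720 CPM in the mutant and 2040 to 2660 CPM in WT with none called, and with 3 called higher and 1 lower without WT replicate 2. The part of the sperm markers in the nspa and nspd values was not tested.

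Genes that neighbour the nsp runs were counted in the same fit. Of 62 tested genes inside a run or within 10 kb of one, edgeR called 5 higher and 7 lower, close to the shares over the whole table, and without WT replicate 2 it called 14 higher and 13 lower. Beside nspb-1 to nspb-5, 2 of the 12 tested neighbours were called higher and 2 lower. drh-1, a helicase of the antiviral response, rose at a log2 change of 0.66 (standard error 0.05, edgeR adjusted p = 0.000548). lec-11 rose at 0.60 (SE 0.11, edgeR adjusted p = 0.0169). dnj-11 fell at -0.23 (edgeR adjusted p = 0.0182) and F38A5.2 at -0.29 (edgeR adjusted p = 0.02). The calls of lec-11, dnj-11 and F38A5.2 were each lost in some fits that left out 1 library. Beside nspb-7 to nspb-10, madf-5 fell at -0.81 (SE 0.09, edgeR adjusted p = 0.00332) and none of the 6 tested neighbours was called higher, whereas catp-4 was without WT replicate 2 (log2 change 0.29, edgeR adjusted p = 0.00222). Beside the nspe run, lips-15, a predicted lipase, fell at -0.81 (SE 0.06, edgeR adjusted p = 0.000510). nhr-234 fell at -2.31 (SE 0.59, edgeR adjusted p = 0.0426, and up to 0.148 with 1 library left out). None of the 7 tested neighbours was called higher, whereas Y38E10A.17 was without WT replicate 2 (log2 change 0.29, edgeR adjusted p = 0.0128). The collagen gene col-20, close to nspd-4 and nspd-5, rose at 2.58 (SE 0.40, edgeR adjusted p = 0.0110, and 0.0501 without mutant replicate 1). dhhc-14, close to the nspc run of 7 genes, rose at 1.09 (SE 0.08, edgeR adjusted p = 0.000647). The other called neighbours changed less. F11G11.5 rose at 0.24 (edgeR adjusted p = 0.0413), dnj-9 fell at -0.26 (edgeR adjusted p = 0.0487) and lam-1 at -0.25 (edgeR adjusted p = 0.0359). The calls of F11G11.5 and dnj-9 were lost without any 1 library other than WT replicate 2 (edgeR adjusted p up to 0.159 and 0.168). That of lam-1 was lost without any 1 mutant library or WT replicate 3 (edgeR adjusted p up to 0.135).

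Single-gene values in these families depend on how reads of near-identical copies were divided. In 3 pairs, nspa-1 (ZC412.7 and H12D21.1), nspa-7 (H12D21.15 and H12D21.14) and nspc-2 (C03G5.9 and C03G5.13), both genes had equal estimated counts in all 6 libraries. Such a pair is 1 measurement split between 2 genes, so the counts of nspa and nspc genes above hold each pair as 2 entries. Summing each pair before the fit left all 17 calls in place. None of the 6 genes in these pairs was among the 17, so that fit does not test how the called genes depend on divided reads. The subfamily sums do not depend on a division of reads within a subfamily.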

How the data were processed

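Transcript abundance was estimated by the authors with kallisto against the WS235 transcriptome of WormBase, which gave the deposited estimated counts for every transcript together with its length and effective length in bases. The kallisto version and any strand option were not given in the sources used here. All 35862 transcripts were summed to 22010 genes by sequence name, and symbols and coordinates, counted from 1, came from the Ensembl WBcel235 annotation. Gene sums were rounded and tested with edgeR 4.0.16 in R 4.3.3 (robust quasi-likelihood F-test, TMM scaling, filterByExpr at a minimum count of 10, group as the only term) over all 16166 genes that passed, with Benjamini-Hochberg adjustment. A gene was called at an adjusted p under 0.05, and standard errors follow from the F statistic. CPM uses TMM-scaled totals. TPM was computed here from estimated counts and effective lengths. sleuth, which the authors used for testing, was not run. The test was checked on simulated counts with the same dispersion for every gene and no outlying library. That check does not cover a library such as WT replicate 2.

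Nothing says that replicates came from separate cultures beyond the word biological, so p-values measure the spread between these samples. The members, marker lists and tests were chosen with earlier results of these data known. Values per library are given for every called member and for the 3 members of highest mean CPM in each subfamily. Further members, such as nspb-4, nspd-10 and nspc-5, are named in addition, chosen after their values were seen, and other genes are markers or neighbours of a run. Alternatives were DESeq2 1.42.0, limma 3.58.1 (voom, and limma-trend on log2(TPM + 1) and log2(TPM + 0.1) for genes with a mean TPM of at least 0.1), RLE factors, library totals, no filter, a filter of 50 counts in 3 libraries, length-scaled counts, a term for replicate number, each library left out and, chosen after seeing the data, identical pairs summed. A merge of members by shared sequence was not run, because no transcript sequences were at hand.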

Additional observations from a re-analysis of the deposited data

How the results depend on the processing

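Leaving out 1 library at a time gave 6 to 29 members called higher and 0 to 4 called lower. The 6 came without pals-25(icb98) replicate 1 and the 29 without WT replicate 2. In these fits 7 to 17 of the 17 calls remained, and none changed sign. Counts of higher members were 13 to 18 under all other settings. The count of lower members was 1 with RLE scaling, with no filter, with log2(TPM + 1) and with log2(TPM + 0.1), and 4 by DESeq2. Across the whole table, 682 to 3165 genes were called higher and 330 to 2972 lower when 1 library was left out, and 2294 and 2487 by DESeq2. Members with a log2 change near 0 turned in sign. nspc-20 was at -0.00 on library totals, -0.01 with length-scaled counts, -0.01 with log2(TPM + 1), -0.01 with log2(TPM + 0.1) and -0.10 to 0.17 when 1 library was left out, and nspc-14 was at -0.07 to 0.22 in those last fits. The log2 ratio of the nspc total was -0.07 with all libraries and 0.05 without WT replicate 2. No other result in the comparison changed direction, and the log2 ratio of the nspb total stayed between 1.96 and 2.37.

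Whether replicate numbers pair the libraries could not be decided. Same-numbered deviations from the group means correlated at 0.081, 0.321 and 0.183, and mutant replicate 3 correlated best with WT replicate 1 (0.218). Deviations within a group cancel out and WT replicate 2 stood apart, so WT replicates 1 and 3 mirror it in this check. A fit with the replicate block gave 13 members higher and 1 lower, and 1184 genes higher and 1010 lower over the whole table.

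With 3 libraries a group and WT replicate 2 apart from the others, whether nspa and nspd genes are called depends on whether that library is included. Members under about 10 counts per library could not be tested, and values of near-identical copies are less certain than the sums.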
